A study of Mus musculus with 22 samples.

Results

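The genes described here mark the cells of the blood vessel wall in the hippocampus: 23 genes of endothelial cells, 7 of pericytes and 3 of vascular smooth muscle. They are 33 of the 21154 genes with a probe on the array, and were read by 37 of its 55681 probes that were not controls. A probe belonged to the set when its RefSeq transcript was one of a member gene, and Kdr, Ly6c1, Slco1c1 and Sox17 had 2 probes each. RNA of the hippocampus was hybridised to 22 one-colour arrays from TgproNGF#3 mice and wild type (WT) mice of the same C57Bl/6xDBA/2 strain. Each genotype had 4 males aged 1 month, 4 males aged 3 months and 3 females aged 12 months. TgproNGF#3 is a single founder line that carries a furin-resistant transgene, together with an IRES and EGFP, under the Thy1.2 promoter, which per the labels drives expression in the brain. WT mice carried no transgene, no mouse had been treated, and RNA came from the right hippocampus.

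Brain endothelial cells are joined by tight and adherens junctions and carry transporters that supply glucose and lipids and pump other compounds out, which together form the blood-brain barrier. Pericytes lie within the capillary basement membrane and depend on PDGF signalling from the endothelium, while contractile smooth muscle cells surround arterioles. In bulk tissue such as this, fewer cells of a type and less RNA per cell cannot be told apart.

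Promoter sequence was at hand for 23 of the 33 genes, from RefSeq on the build GRCm38.p6 (250 bases before to 50 bases after the start of the transcript). Pecam1, Cdh5, Ly6a, Esam, Vwf, Sox17, Sox18, Pdgfrb, Tagln and Myh11 had no entry. The motif TATAAA, searched on both strands, was present in 7 of the 23 promoters (30.4%) and in 15.7% of the promoters of all 27025 genes in the same table. GGGCGG, on both strands, was present in 10 of 23 (43.5%) and in 38.2% of all genes, and GGAA, the core that ETS factors of endothelial cells bind, in 21 of 23 (91.3%) and 96.5%. A few of them are shown, those of the pair of members with an entry that passed a threshold below, Slc2a1 and Anpep, and that of Kdr. The Kdr probes gave genotype differences of -0.94 and -0.41 at 3 months, each with groups that overlapped, and were not compared by a test. Capitals mark GGGCGG and TATAAA on either strand.
Slc2a1 (chr4:119108495-119108794, plus strand): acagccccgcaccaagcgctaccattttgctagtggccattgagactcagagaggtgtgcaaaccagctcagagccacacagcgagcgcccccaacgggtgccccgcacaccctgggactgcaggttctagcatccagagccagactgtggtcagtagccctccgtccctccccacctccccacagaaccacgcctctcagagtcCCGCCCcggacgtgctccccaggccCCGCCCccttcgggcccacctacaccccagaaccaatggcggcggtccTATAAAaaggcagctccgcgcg
Anpep (chr7:79848161-79848460, minus strand): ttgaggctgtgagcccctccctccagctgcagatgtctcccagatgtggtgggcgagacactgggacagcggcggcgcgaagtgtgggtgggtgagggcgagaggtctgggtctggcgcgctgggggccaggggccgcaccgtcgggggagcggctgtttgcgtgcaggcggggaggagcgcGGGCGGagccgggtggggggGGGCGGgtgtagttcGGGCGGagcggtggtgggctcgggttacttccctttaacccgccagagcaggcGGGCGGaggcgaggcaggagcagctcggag
Kdr (chr5:75978406-75978705, minus strand): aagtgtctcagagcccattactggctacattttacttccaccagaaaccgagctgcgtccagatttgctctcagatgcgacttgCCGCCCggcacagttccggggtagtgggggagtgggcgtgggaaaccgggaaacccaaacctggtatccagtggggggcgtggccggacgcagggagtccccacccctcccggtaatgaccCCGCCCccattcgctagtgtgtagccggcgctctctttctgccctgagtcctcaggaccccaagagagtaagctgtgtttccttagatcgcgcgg
The Slc2a1 window held 3 matches, of which 1 was TATAAA, the Kdr window held 2 and the Anpep window held 4. GC content was 65.3% for Slc2a1, 60.7% for Kdr and 72.3% for Anpep.

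Levels are given in log2 units above or below the array's own 75th percentile of signal, so that a level of 0 is the signal of that percentile and a difference of 1 is a doubling. Of the 37 probes, 36 were well above background on all 22 arrays, and 32 of the 33 genes were therefore measured in every mouse. The exception was Myh11, the smooth muscle myosin heavy chain, which was not well above background in the 12 month TgproNGF#3 replicate 2. No member spot was saturated. The share of spots well above background was 69.8% to 80.3% across the 1 month arrays. It was 57.6% to 64.7% at 3 months and 60.7% to 67.7% at 12 months. The replicates of a group correlated with r between 0.973 and 0.995 over probes.

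At 1 month the vessel wall genes of TgproNGF#3 and WT mice were hardly separated. No member passed an unadjusted p below 0.05 with an absolute log2 fold change above 1, the thresholds of the study's methods, where 0.57% of all probes did. None passed an adjusted p below 0.05 (all probes, 0%), 1 of 37 probes had an unadjusted p below 0.05 (all probes, 3.47%), and in none did the groups fail to overlap (all probes, 3.32%). The differences of the 33 genes ran from -0.41 for Vwf, the clotting factor carrier stored in endothelial cells, to 0.46 for Cldn5. Their medians were 0.06 over the endothelial genes, 0.16 over the pericyte genes and 0.11 over the smooth muscle genes, against 0.07 over all genes, and no gene differed by more than 0.5. Other settings took the endothelial median to -0.0069, and leaving out single mice took the smooth muscle median to -0.029. The standard errors of the 37 probes ranged from 0.161 to 0.368, with a median of 0.224.

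Cldn5, the main claudin of brain endothelial tight junctions, had the smallest p of the endothelial genes at this age. Its levels in the TgproNGF#3 mice were 2.07, 2.12, 2.20 and 1.77, and in the WT mice 1.44, 1.72, 1.22 and 1.94. The lowest transgenic mouse lay between the WT mice, and the difference of 0.46 (SE 0.198) had a limma adjusted p of 1.00 and an exact permutation p of 0.0571. This permutation did not pair mice by replicate number, and with 4 pairs kept the smallest permutation p is 0.125. Pdgfrb, the receptor through which pericytes are recruited, read -0.39, -0.19, -0.55 and -0.59 in TgproNGF#3 and -0.57, -0.61, -0.97 and -0.76 in WT. These groups overlapped as well, with a difference of 0.30 (SE 0.172, limma adjusted p = 1.00). For Acta2, smooth muscle alpha-actin, the levels were 0.91, 0.89, -0.27 and -0.13 in TgproNGF#3 and -0.28, 0.33, -0.54 and 0.81 in WT.

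The smooth muscle genes at 1 month split by the row of the array on the slide. In the first row, with 2 mice of each genotype, TgproNGF#3 exceeded WT by 0.88 for Acta2, 0.55 for Tagln and 0.52 for Myh11, and in the second row it was below WT, by -0.34, -0.37 and -0.30. At this age the TgproNGF#3 arrays lay in other columns of the slide than the WT arrays, so genotype and column cannot be told apart. With the replicate number, which at this age also marks the row, as a block, again 0 members passed the thresholds.

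**Figure D1:**
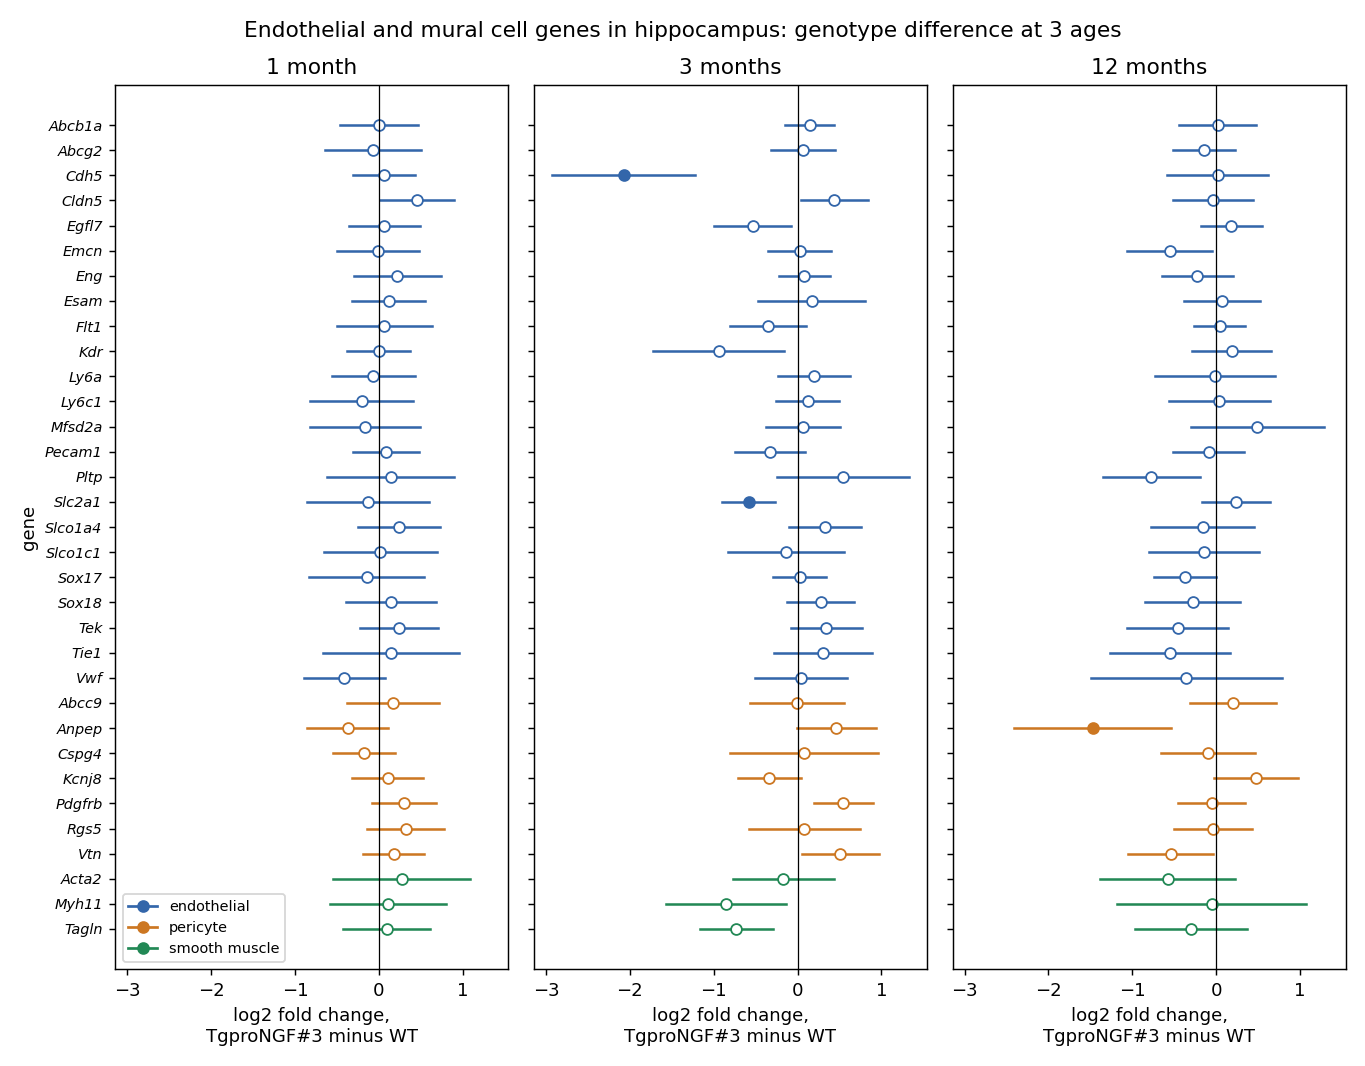
Genotype difference of the 33 genes (rows) at 1, 3 and 12 months, as log2 fold change (horizontal axis) with its 95% confidence interval from limma, coloured by cell type. Filled points passed 1 of the thresholds: Cdh5 and Slc2a1 at 3 months and Anpep at 12 months, each below 0.

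At 3 months Cdh5 and Slc2a1, a junction protein and a transporter of the endothelium, fell in TgproNGF#3 mice, while most other endothelial genes differed by less than 0.5 on the log2 scale. Of the 37 probes 1 passed the methods' thresholds, against 6.76% of all probes, and it was lower in the transgenic mice, as were 6.12% of all probes. An adjusted p below 0.05 was reached by 2 of 37 (all probes, 8.43%), an unadjusted p below 0.05 by 9 of 37 (all probes, 27.2%), 3 of them higher and 6 lower, and the groups did not overlap for 4 of 37 (all probes, 20.3%). Each of these shares was below that of all probes. The median difference was 0.07 over the endothelial genes, 0.08 over the pericyte genes and -0.73 over the 3 smooth muscle genes, against -0.05 over all genes. The smooth muscle median lay between -0.73 and -0.59 under the other settings run on all 8 arrays, apart from -0.37 in the authors' log2 values. Taking the percentile over all spots moved the median of all genes to 0.07 and that of the 33 members from 0.07 to 0.20, while the members stayed 0.12 above all genes under both.

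Cdh5 encodes VE-cadherin, the adhesion molecule of endothelial adherens junctions. Its levels at 3 months were -4.48, -3.25, -3.99 and -5.40 in the TgproNGF#3 mice and -1.99, -2.20, -2.36 and -2.28 in the WT mice. All 4 transgenic mice were below all 4 WT mice and spread more widely (SD 0.90 against 0.155). The difference was -2.07 (SE 0.381), so that WT mice were 4.21-fold higher, with a limma adjusted p of 0.0126 and an exact two-sided permutation p of 0.0286, the smallest that 4 against 4 can give. Within the rows of the slide the difference was -1.77 and -2.38. It was called under all 20 alternative settings, leaving out each mouse included, with values between -2.42 and -1.64. At the other ages this probe did not separate the genotypes: the 1 month levels were -2.24, -2.11, -2.33 and -2.07 in TgproNGF#3 and -2.13, -2.42, -2.03 and -2.41 in WT, and the 12 month levels -2.84, -1.94 and -2.90 in TgproNGF#3 and -2.60, -2.53 and -2.60 in WT.

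The genotype difference in Cdh5 was not the same in the mice of the 3 ages. Each age had a slide of its own and the 12 month mice were females, so age cannot be told apart from slide, nor at 12 months from sex, in these contrasts. Between 1 and 3 months the difference moved by -2.13 (SE 0.428, limma interaction adjusted p = 0.0137), and between 3 and 12 months by 2.09 (SE 0.530, adjusted p = 0.0417). Both contrasts use the mice of 3 months. The first had an adjusted p below 0.05 under all 17 alternatives (0.000607 to 0.0368), and the second under 4 of 15 (0.00657 to 0.111). In all, 1 of 37 probes passed the interaction test between 1 and 3 months (all probes, 1.75%) and 2 of 37 between 3 and 12 months (all probes, 4.01%), the other being that of Anpep. The count of 2 became 3 when all 22 arrays were fitted together and ranged from 0 to 4 when single mice were left out.

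Slc2a1, the glucose transporter of the blood-brain barrier, read 1.90, 1.64, 1.54 and 1.93 in TgproNGF#3 and 2.26, 2.45, 2.29 and 2.34 in WT at 3 months. The groups did not overlap. It was lower by -0.58 (SE 0.140, limma adjusted p = 0.0355), which is 0.668 of the WT signal, with the same difference of -0.58 in either row of the slide. Its adjusted p stayed below 0.05 under 7 of 20 alternatives and ranged from 0.0276 to 0.215, so the call depended on the setting although the direction did not. The 1 month levels of Slc2a1 were 2.70, 2.37, 2.18 and 2.00 in TgproNGF#3 and 3.20, 1.69, 2.85 and 2.03 in WT, and those of 12 months 1.99, 1.88 and 2.37 against 1.70, 1.83 and 2.00. The change of its difference between 3 and 12 months, 0.82, had an adjusted p of 0.0509 in the limma interaction.

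Among the other junction and adhesion genes at 3 months, Cldn5 was higher by 0.44 (limma adjusted p = 0.152), Pecam1 differed by -0.33 and Esam by 0.17. Of the receptors for VEGF, neither of which passed a threshold, Flt1 differed by -0.35 (adjusted p = 0.294) and Kdr by -0.94 on its brighter probe (adjusted p = 0.119) and -0.41 on the other (adjusted p = 0.236), each with groups that overlapped. The brighter Kdr probe read -0.75, 0.01, 0.37 and -0.75 in TgproNGF#3 and 1.01, 0.64, -0.18 and 1.17 in WT, so that 1 WT mouse lay among the transgenic mice. Leaving out that WT mouse, replicate 3, or the TgproNGF#3 replicate 2 or 3 brought Kdr past the methods' thresholds. The second Kdr probe, with 10 spots per array and a median SD between spots of 0.045, read from -2.78 to -1.75 in TgproNGF#3 and from -1.96 to -1.65 in WT. Tek and Tie1, the angiopoietin receptor and its partner, differed by 0.34 and 0.30, and Eng, a co-receptor for TGF-beta ligands, by 0.08. Egfl7, a protein secreted by endothelial cells, was lower by -0.54 (adjusted p = 0.129).

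None of the transporters other than Slc2a1 passed a threshold at 3 months. The efflux pumps Abcb1a and Abcg2 differed by 0.14 and 0.07, the organic anion carriers Slco1a4 and Slco1c1 by 0.33 and -0.14, the lysophosphatidylcholine transporter Mfsd2a by 0.07, and the phospholipid transfer protein Pltp by 0.54, each with an adjusted p above 0.05 in limma. The transcription factors Sox17 and Sox18 differed by 0.02 and 0.27. Ly6a and Ly6c1, which belong to a family of closely similar genes, differed by 0.20 and 0.12, and a probe may read more than 1 such gene.

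**Figure D2:**
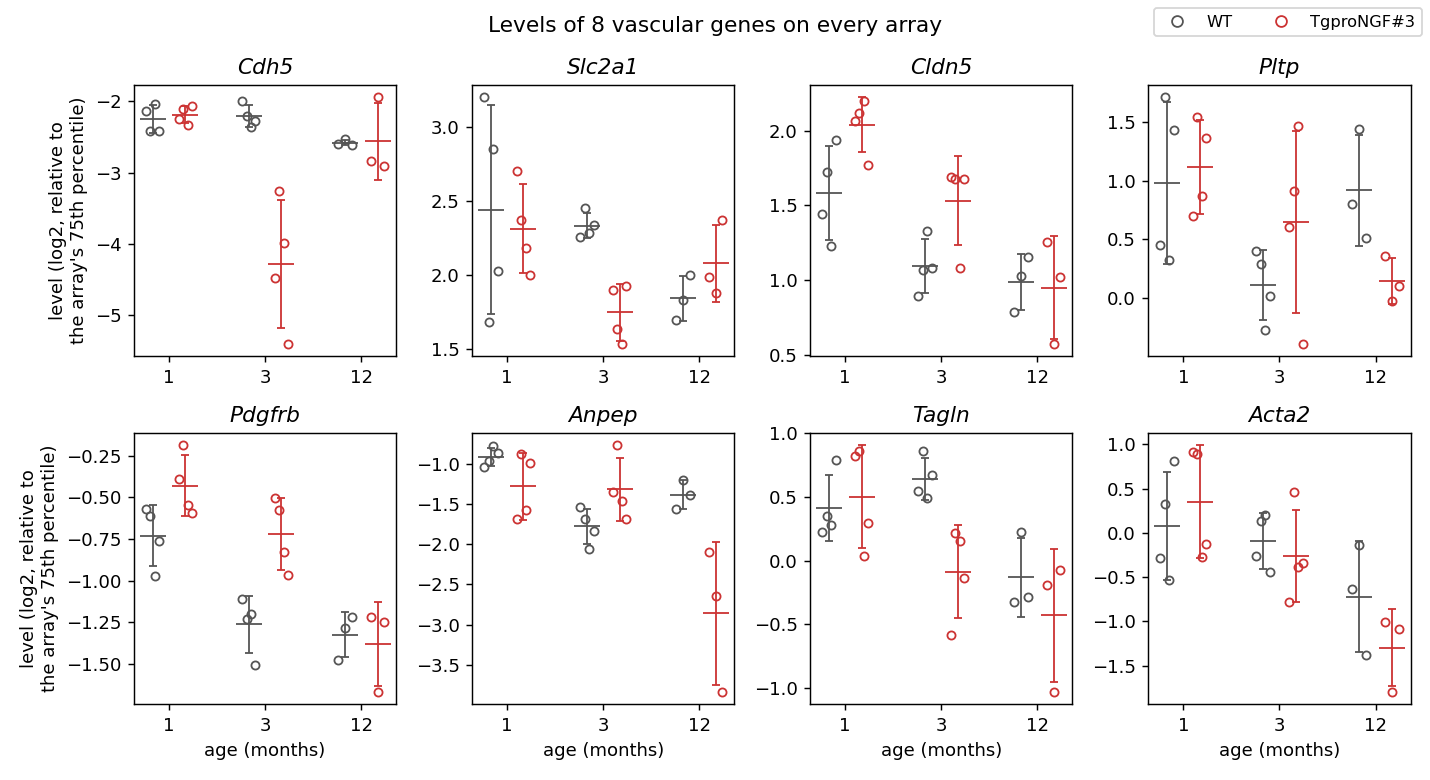
Level of 8 vascular genes on each of the 22 arrays (vertical axis, log2 relative to the 75th percentile of the array; each panel has its own scale) against age in months, with 1 point per mouse and the mean and SD as bars. At 3 months the TgproNGF#3 points of Cdh5, Slc2a1 and Tagln lie below all WT points and those of Pdgfrb above them, and at 12 months those of Anpep and Pltp lie below.

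The pericyte genes did not move one way at 3 months: 5 of 7 were higher and 2 lower, and none passed a threshold. Pdgfrb read -0.50, -0.58, -0.83 and -0.97 in TgproNGF#3 and -1.11, -1.23, -1.20 and -1.51 in WT. Its groups did not overlap, and the difference of 0.54 (SE 0.157, 1.46-fold) had a limma adjusted p of 0.0625, which was below 0.05 under 5 of 20 alternatives (0.0176 to 0.191). Vtn, the pericyte-secreted vitronectin, was higher by 0.51 (adjusted p = 0.147) and Anpep, the aminopeptidase CD13, by 0.46 (adjusted p = 0.194). Kcnj8 and Abcc9, the subunits of the pericyte KATP channel, differed by -0.34 and -0.0029, the signalling regulator Rgs5 by 0.08 and the proteoglycan Cspg4 by 0.08. Leaving out the TgproNGF#3 replicate 4, which had the lowest Rgs5 level, raised the median of the pericyte genes from 0.08 to 0.39, and leaving out the TgproNGF#3 replicate 3 brought it to -0.052.

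The 3 smooth muscle genes were each lower at 3 months without passing a threshold. Tagln, the actin-binding protein SM22, read -0.58, 0.22, 0.15 and -0.14 in TgproNGF#3 and 0.54, 0.86, 0.49 and 0.67 in WT. The groups did not overlap, and the difference of -0.73 (SE 0.195, 1.66-fold) had an adjusted p of 0.05002 in limma, just on the upper side of the threshold. It was below 0.05 under 4 of 20 alternatives, with a range from 0.0402 to 0.174. Myh11 was lower by -0.85 (SE 0.320, adjusted p = 0.126), with levels from -5.39 to -4.55 in TgproNGF#3 and from -4.81 to -3.46 in WT. Without the TgproNGF#3 replicate 2, the WT replicate 1 or the WT replicate 4, Myh11 passed the methods' thresholds. Acta2 differed by -0.17 (SE 0.268).

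The levels of genes of neighbouring cell types are given beside these values, and their part in them was not tested. At 1 month 6 of 6 perivascular macrophage genes and 12 of 12 choroid plexus genes were lower in TgproNGF#3 (all genes, 32.8%). So were 14 of 17 leptomeningeal fibroblast genes and 7 of 8 blood genes, and none of these passed a threshold. Over all genes tested at 3 months, 43.8% were higher and 56.2% lower in TgproNGF#3. At that age 17 of 17 genes of leptomeningeal fibroblasts were higher, with a median difference of 0.40. Their mean level ran from -0.48 to 0.42 in the transgenic mice and from -0.75 to -0.19 in the WT mice. Of the genes of choroid plexus epithelium, 12 of 12 were lower, with a median of -0.86 and a mean level from -2.93 to 1.47 in TgproNGF#3 against 0.36 to 1.08 in WT. Perivascular macrophage genes had a median difference of 0.21, and 7 of 8 blood genes were lower, with a median of -0.30. Among the blood genes Hbb-b1, a beta-globin, fell by 2.17 (limma adjusted p = 0.000654) with groups that did not overlap; it is 1 of several closely similar globin genes.

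At 12 months Anpep was the only member past the methods' thresholds, and it fell in TgproNGF#3 mice. This was 1 of 37 probes, against 1.3% of all probes, or 0.992% counting those that were lower. An adjusted p below 0.05 was reached by none (all probes, 0%), while an unadjusted p below 0.05 was reached by 5 of 37 (all probes, 9.05%), each lower in the transgenic mice. The groups did not overlap for 4 of 37 probes (all probes, 15.5%). The median difference was -0.09 over the endothelial genes, -0.05 over the pericyte genes and -0.30 over the smooth muscle genes, against 0.06 over all genes. A count of 1 does not set the members apart from all probes. Other settings moved the endothelial median between -0.17 and 0.06, the pericyte median between -0.16 and 0.10 and the smooth muscle median between -0.53 and 0.079, so none of them has a settled direction. With median scaling the median of all genes became 0.21, and the members stayed 0.15 below it as they did in the values above.

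The Anpep levels were -2.10, -2.65 and -3.84 in TgproNGF#3 and -1.57, -1.21 and -1.39 in WT. All 3 transgenic mice were below all 3 WT mice. The difference of -1.47 (SE 0.402, 2.78-fold) had a limma p of 0.0072 and an adjusted p of 0.549, and the exact two-sided permutation p was 0.1, the smallest that 3 against 3 can give. The replicate with -3.84 set much of its size: without the TgproNGF#3 replicate 3 the difference was -0.98 and no member passed. In the second row of the slide, which held all 3 transgenic mice and 1 WT mouse, the difference was -1.47. At the earlier ages Anpep had read -1.69, -0.87, -1.58 and -0.99 against -1.04, -0.97, -0.78 and -0.86 at 1 month, and -1.36, -0.77, -1.46 and -1.69 against -1.54, -1.69, -2.06 and -1.84 at 3 months. The difference moved by -1.93 between 3 and 12 months (SE 0.459, limma interaction adjusted p = 0.0311), and its adjusted p was below 0.05 under 10 of 15 alternatives (0.00918 to 0.0863). In this contrast age, slide and sex cannot be told apart.

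Pltp had the smallest p of the endothelial genes at 12 months, with 0.36, -0.03 and 0.10 in TgproNGF#3 and 0.80, 1.44 and 0.51 in WT. The groups did not overlap, and the difference was -0.77 (SE 0.248, limma adjusted p = 0.549), or -0.37 within the second row. Emcn, an endothelial sialomucin, was lower by -0.55, Vtn by -0.54 and Sox17 by -0.37, with the same adjusted p of 0.549 in limma. Kcnj8 was higher by 0.47 with groups that did not overlap, and Tie1, Tek and Vwf differed by -0.55, -0.46 and -0.36. Cldn5, Pecam1, Flt1 and Pdgfrb differed by -0.04, -0.09, 0.04 and -0.05. Acta2 had the smallest p of the smooth muscle genes, with -1.01, -1.80 and -1.09 in TgproNGF#3 and -0.64, -0.14 and -1.38 in WT. Its difference of -0.58 became 0.08 within the second row, and only 1 WT mouse was in that row.

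Values of genes of other cell types at the vessel and the brain surface at the same age are given beside these. Over all genes tested at 12 months, 40.1% were lower in TgproNGF#3 and 1.18% passed the methods' thresholds in either direction. Of 16 leptomeningeal fibroblast genes tested, 15 were lower and 8 passed the methods' thresholds, with a median of -1.22, and their mean level ran from -1.89 to -1.08 in TgproNGF#3 and from -0.66 to 0.03 in WT. Of 6 perivascular macrophage genes, 6 were lower and 3 passed, with a median of -0.93 and mean levels from -4.02 to -3.71 against -3.10 to -2.73, and Cd163 of that list had a value on 1 of 22 arrays. The 12 choroid plexus genes were lower with a median of -0.97, within a mean level from -2.19 to 1.02 in TgproNGF#3 and -1.95 to 1.62 in WT. Of the blood genes 5 of 8 were higher (all genes, 59.9%), with a median of 0.06, the same as over all genes. Their mean level ran from 0.07 to 1.07 in TgproNGF#3 and from 0.47 to 1.18 in WT. S100a8 and S100a9, a pair of neutrophil proteins, passed the methods' thresholds at -1.69 and -1.42 (limma adjusted p = 0.549 for both). The part of these lists in the Anpep, Pltp and smooth muscle values was not tested.

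**Figure D3:**
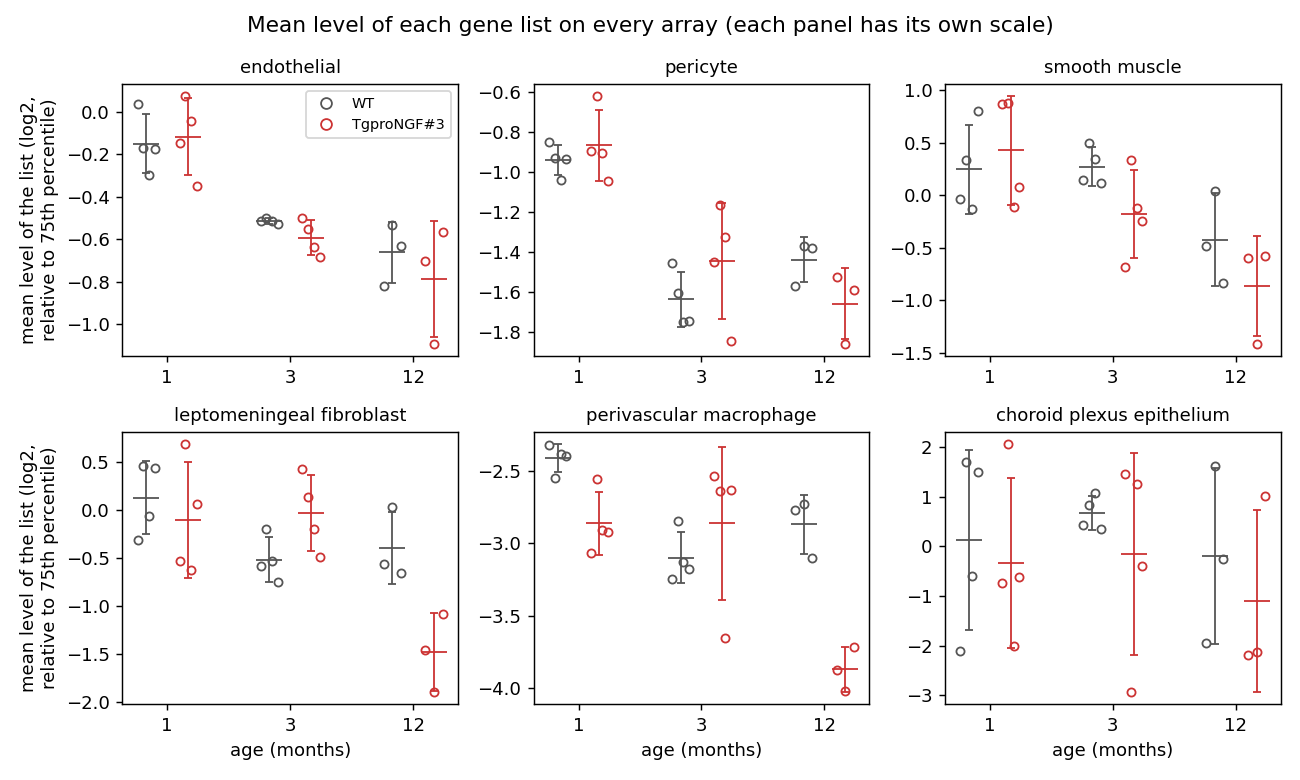
Mean level of the endothelial, pericyte and smooth muscle genes and of 3 lists of neighbouring cell types on each array (vertical axis, log2 relative to the 75th percentile; genes measured on all 22 arrays; separate scales) against age in months, with 1 point per mouse and mean and SD as bars. At 12 months the leptomeningeal and perivascular macrophage points of TgproNGF#3 lie below all WT points, while the endothelial points overlap. At 1 month the perivascular macrophage points of TgproNGF#3 also lie below all WT points, narrowly (highest -2.555 against lowest -2.552).

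Further genes of the same cells were taken from lists of 46 other endothelial and barrier genes, 26 other mural genes and 46 vascular signals and receptors. At 1 month none of them passed either threshold. At 3 months 41 endothelial and barrier genes were tested, with a median difference of -0.19 against -0.05 over all genes. Of these, 30 were lower (all genes, 56.2%). An adjusted p below 0.05 was reached by 4 of these 41 genes, 1 of 23 other mural genes and 1 of 43 vascular signals and receptors (all genes, 6.52%), and the methods' thresholds by 3, 1 and 0 (all genes, 4.12%). Palmd fell by 1.04 (limma adjusted p = 0.00343), the tight junction gene Ocln by 1.51 (adjusted p = 0.0075), the transcription factor Foxf2 by 1.07 (adjusted p = 0.0702, past the methods' thresholds) and the adhesion receptor Adgrl4 by 0.69 (adjusted p = 0.0296). Plvap, a protein of fenestrated endothelium that the mature barrier lacks, rose by 0.71 (adjusted p = 0.0171). Of 23 other mural genes tested, the myosin kinase Mylk fell by 1.36 (adjusted p = 0.0872, past the methods' thresholds) and the phosphodiesterase Pde3a by 0.83 (adjusted p = 0.0351). Of 43 vascular signals and receptors tested, only Axin2, a target of Wnt signalling, passed, and fell by 0.65 (adjusted p = 0.0462). At 12 months 21 of 23 other mural genes were lower (all genes, 40.1%), with a median of -0.42 against 0.06 over all genes, and the basement membrane gene Nid1 and the transcription factor Zic1 passed the methods' thresholds, by -1.15 and -1.28 (adjusted p = 0.549 for both in limma), which is 2 of 23 (all genes, 1.18%). None of the other endothelial genes and none of the vascular signals passed at 12 months in limma, with 2 of 42 and 6 of 42 at an unadjusted p below 0.05 (all genes, 8.1%).

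The WT mice allow a description of the vessel genes over the ages, without a test, since age, slide and at 12 months sex changed together. From 1 to 3 months the 33 members differed by a median of -0.42, close to the -0.44 of all genes, and 9 of 37 probes were lower without overlap (all probes, 39.1%) and none higher (all probes, 1.46%). The pericyte genes were lower in 7 of 7 (all genes, 90%), with a median of -0.54, and 4 of them did not overlap: Cspg4 at -1.16, Rgs5 at -1.14, Anpep at -0.87 and Pdgfrb at -0.53. Cspg4 is also made by oligodendrocyte precursors, and the mean level of 6 other genes of those cells was 0.33 at 1 month and -0.32 at 3 months in the same WT mice; their part in the Cspg4 value was not tested. Rgs5, for example, had a mean of 0.48 ± 0.24 (SD, n = 4) at 1 month and -0.65 ± 0.33 (SD, n = 4) at 3 months. Sox17 at -0.94, Pltp at -0.87 and Tek at -0.73 were the lowest of the endothelial genes by difference on 1 probe per gene. The second Kdr probe differed by -0.95 without overlap. Cdh5, Egfl7 and Flt1 differed by 0.04, 0.02 and 0.08, and Tagln by 0.23. Relative to the median of all genes these 4 stood at 0.48, 0.46, 0.52 and 0.66. The difference of all genes was -0.66 with median scaling and -0.53 with quantile normalization, and the members then stood 0.01 and 0.04 above it.

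From 3 to 12 months the members of WT mice differed by a median of -0.18, where all genes stood at 0.04. Without overlap, 9 of 37 probes were lower (all probes, 9.82%) and 4 higher (all probes, 19.4%). The endothelial genes had a median of -0.34 and 17 of 23 were lower, among them Emcn at -0.82, Slc2a1 at -0.49, Ly6a at -0.46 and Cdh5 at -0.37, each without overlap. Higher without overlap were Pltp at 0.81 and Sox17 at 0.70 and 0.68 on its 2 probes, and Kdr differed by 0.55 and 0.68, the latter without overlap. The pericyte genes had a median of 0.29, with Rgs5 at 0.65. All 3 smooth muscle genes were lower, Myh11 by -1.28, Tagln by -0.77 and Acta2 by -0.63, and only Tagln did not overlap. Relative to all genes the members stood at -0.22, and between -0.31 and -0.22 with another scaling.

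**Figure D4:**
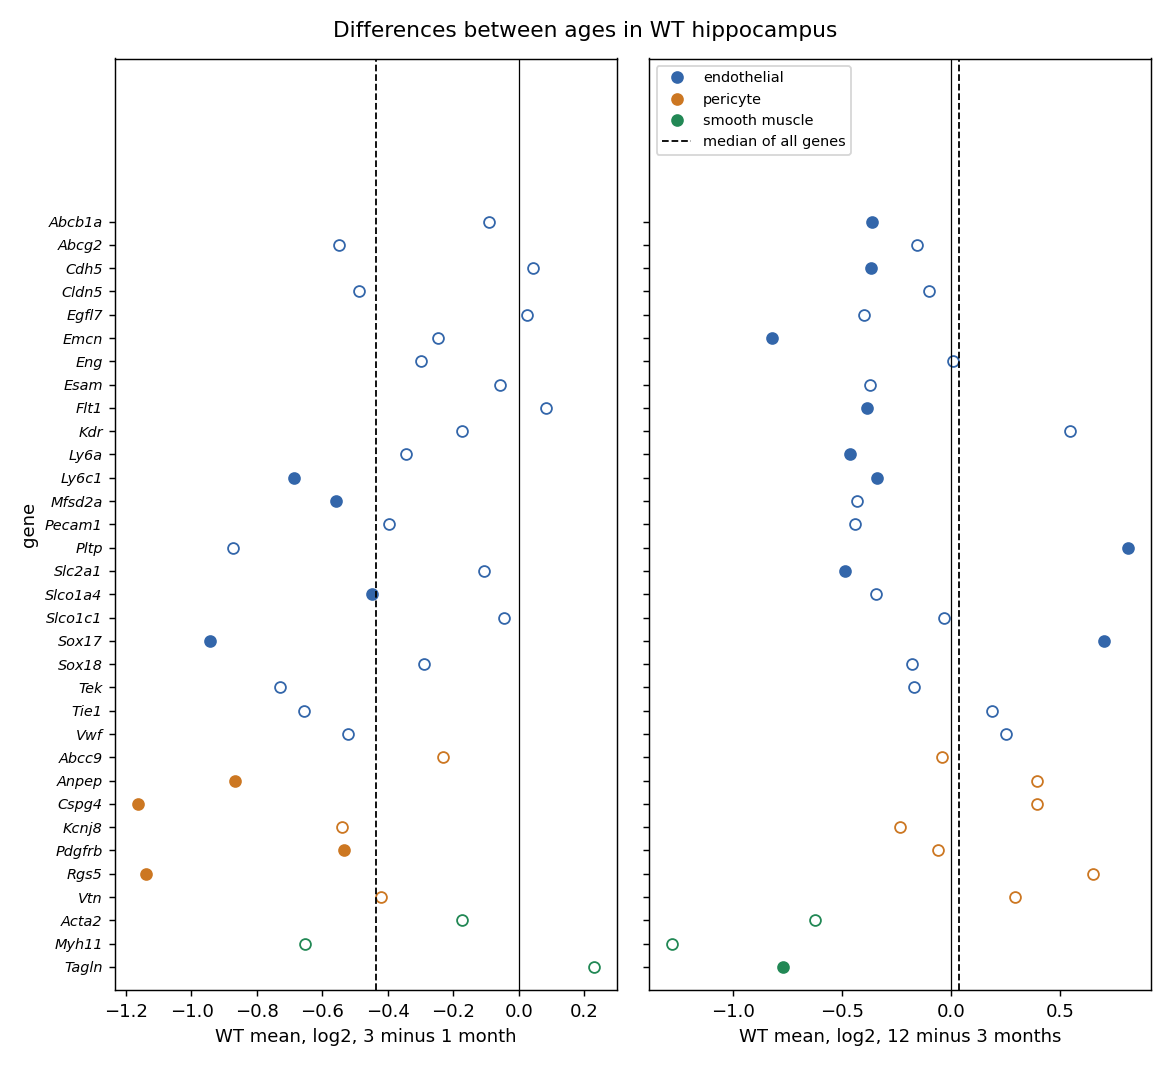
Difference of the WT means between 1 and 3 months (left) and between 3 and 12 months (right) for the 33 genes, in log2 units on the horizontal axis. Filled points are genes whose WT mice did not overlap between the ages, and the dashed line is the median of all genes, -0.44 and 0.04.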

How the data were processed

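Hippocampal RNA of 22 mice was measured on one-colour Agilent arrays, 1 slide per age. Per the file headers, the authors scanned them and extracted intensity values with Feature Extraction 10.7.3.1, whose processed signal was used. They also deposited log2 values scaled by array, which held 28929 probes and were used as an alternative. Per the labels, RNA was extracted with Trizol and treated with DNAse on Qiagen columns, and labelling, hybridization and washing followed the Agilent protocol.

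From the processed intensity, log2 values were taken for spots well above background and free of outlier flags, the array's 75th percentile was subtracted, and spots of a probe were averaged. Where both groups had 2 or more values, probes were tested with limma 3.58.1 (R 4.3.3) within each age, two-sided, with Benjamini-Hochberg adjustment over all probes. A call was an unadjusted p below 0.05 with an absolute log2 fold change above 1, as in the study's methods. Adjusted p is given beside it. One probe per gene (the one measured on most arrays, then the brightest) served for medians, and counts of calls are over probes. Changes between ages were limma interaction terms over the arrays of 2 ages. The number of arrays limits the precision. Genes were named through RefSeq accessions in the scanner files, for 28026 of 55681 probes. Alternatives were other filters, percentiles, scalings and background corrections, the authors' values, blocks for replicate number and array row, all 22 arrays in 1 fit, the mean of a gene's probes and leaving out each mouse. The script was tested on simulated data.

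The members and lists were chosen with earlier results of these data known. Values per mouse are given for members that passed at any age, for the smallest p of each cell type and age, and for members past the interaction test. Kdr was added after its values were seen. Of other vascular lists, up to 5 genes past a threshold are named per list and age. Deviations from the group means of mice with the same replicate number correlated at 1 month (r = 0.511, 0.272, 0.191 and 0.208 over 36103 probes). The highest correlation with another number was 0.356, 0.253, -0.0128 and 0.238, which for replicate 4 was the larger value. Whether the numbers paired mice at that age is therefore not established, although same-numbered mice shared an array row. The correlations of same-numbered mice were -0.356 to -0.0234 at 3 months, where they also shared a row, and -0.316 to 0.0503 at 12 months. Each mouse is taken as a separate animal from the labels, with no statement of litters.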

Additional observations from a re-analysis of the deposited data

Results flagged for a closer look

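By limma interaction, the genotype difference of Cdh5 differed by -2.13 between the 1 and 3 month mice and by 2.09 between the 3 and 12 month mice, the latter with an adjusted p below 0.05 under 4 of 15 alternatives. For Anpep it differed by -1.93 between the 3 and 12 month mice. Age cannot be told apart from slide in these contrasts, nor at 12 months from sex. In groups of 4 mice, 7 of 132 gene and group combinations held 1 mouse far from the others, where chance gives about 1 in 20; the value is the gap to the nearest mouse as a share of the group's range. In the 1 month TgproNGF#3 mice these were Abcg2 (replicate 4, lowest, 0.977), Rgs5 (replicate 4, lowest, 0.906) and Ly6a (replicate 3, highest, 0.843). In the 1 month WT mice it was Mfsd2a (replicate 1, highest, 0.863). At 3 months they were Cldn5 (TgproNGF#3 replicate 3, lowest, 0.969) and Rgs5, in the TgproNGF#3 mice (replicate 4, lowest, 0.838) and in the WT mice (replicate 3, highest, 0.838).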

How the results depend on the processing

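The replicate block left the counts of called members at 0, 1 and 1 at 1, 3 and 12 months, and Slc2a1 at 3 months then had an adjusted p of 0.125. It changed no other call. By adjusted p alone the counts were 2 at 3 months and 0 at 12 months, and by unadjusted p alone 1, 9 and 5. The endothelial median at 3 months, 0.07, became 0.20 with dim spots kept, 0.20 with the percentile over all spots and 0.15 with the authors' log2 values. Fitting all 22 arrays together gave 3 members past the interaction test from 3 to 12 months. With the array row as a block Acta2 at 12 months turned to 0.079. Leaving out single mice gave 1 to 3 called members at 3 months, 0 to 1 at 12 months and 0 to 4 for the change from 3 to 12 months. The endothelial median at 3 months then ran from 0.0096 to 0.17 and the pericyte median from -0.052 to 0.39. Cdh5 at 3 months was called under every one of 20 alternatives. Groups of 3 or 4 mice leave standard errors near 0.2 on the log2 scale. Much larger differences also missed an adjusted p below 0.05 in limma, such as Kdr at -0.94 at 3 months and Anpep at -1.47 at 12 months. The absence of a call therefore does not exclude differences of such sizes.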
